A study of Mus musculus with 37 samples.

Results

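The genes described here encode proteins that load, cleave, remodel and take up lipoproteins: the triglyceride and phospholipid lipases Lpl, Lipc and Lipg, the lipase inhibitor Angptl4, the plasma remodelling proteins Pltp and Lcat, the receptors Vldlr and Scarb1, and Mttp, which loads lipid onto nascent particles. They were taken by name, with every probe that carried one of the 9 symbols, which gave 14 of the 30146 probes and 9 of the 21450 gene symbols on the table. At 5 mg/kg of HFPO-DA, Lpl and Pltp rose from 6.99-fold to 12.5-fold in the livers of both sexes while Lipc fell, and in males Mttp and Vldlr also rose and 2 of the 3 Scarb1 probes fell. Angptl4, Lipg and Lcat did not pass the test at any dose in either sex.

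HFPO-DA is a short-chain perfluoroalkyl ether acid, given here as its ammonium salt in deionized water by oral gavage once daily. The livers came from wild-type CD1 mice, named Crl:CD1(ICR) in the study's methods, the parents of a reproduction and developmental toxicity study, and were fixed in formalin, embedded in paraffin and sectioned. The vehicle controls (0 mg/kg) received deionized water alone, and the treated groups a dose of 0.1 mg/kg, of 0.5 mg/kg or of 5 mg/kg. Males, approximately 6 weeks old at the start, received 84 to 85 doses, from 70 days before mating to the end of mating. Females, approximately 11 weeks old, received 53 to 65 doses, from 14 days before mating to day 20 or 21 of lactation, so that sex, age, number of doses and lactation cannot be told apart. From the vehicle to the highest dose the groups held 5, 5, 5 and 4 males, and 5, 5, 4 and 4 females, 37 mice in all, after the authors removed mice of low depth. Mice are numbered within a group for naming only.

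Triglyceride-rich lipoproteins leave the liver once microsomal triglyceride transfer protein has lipidated apolipoprotein B, and in the circulation their triglyceride is hydrolysed by lipoprotein lipase on the capillary wall. Hepatic lipase and endothelial lipase act further down this path, on remnants and on high-density lipoprotein (HDL), and phospholipid transfer protein and lecithin-cholesterol acyltransferase move surface lipid and esterify cholesterol on HDL. The adult liver is known as a site of hepatic lipase, Pltp, Lcat and Mttp synthesis, whereas lipoprotein lipase is mainly a product of fat, muscle and macrophages.

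Promoter sequence from RefSeq (GRCm38.p6, 250 bases before to 50 after a transcript start) was at hand for 5 of the 9 genes, Lipc, Pltp, Lcat, Vldlr and Mttp, and not for Lpl, Lipg, Angptl4 and Scarb1. The windows of the genes whose levels changed in opposite directions, Pltp and Mttp against Lipc, are shown to give their context. Capitals mark matches on either strand to AGGTCA, the half-site of many nuclear receptors, and to TATAAA, the TATA box core. Of 32851 windows of the same length in the RefSeq table, 16.3% held AGGTCA, 13.6% held TATAAA, and 0.381% held a DR1 element, searched as a pair of AGGNCA half-sites repeated in one direction with a single base between them. The Pltp start lies 3 bases inside the gene of GENCODE release M21, the Mttp start 1550 bases inside it, and the Lipc starts 5 and 17418 bases inside it.
Pltp, chr2:164857659-164857958, minus strand: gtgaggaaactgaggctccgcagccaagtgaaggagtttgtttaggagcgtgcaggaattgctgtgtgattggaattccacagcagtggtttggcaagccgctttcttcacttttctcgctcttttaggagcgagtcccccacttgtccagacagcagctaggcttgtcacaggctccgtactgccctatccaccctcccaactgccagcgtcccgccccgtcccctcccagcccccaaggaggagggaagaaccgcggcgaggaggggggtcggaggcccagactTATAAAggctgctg
Mttp, chr3:138143369-138143668, minus strand: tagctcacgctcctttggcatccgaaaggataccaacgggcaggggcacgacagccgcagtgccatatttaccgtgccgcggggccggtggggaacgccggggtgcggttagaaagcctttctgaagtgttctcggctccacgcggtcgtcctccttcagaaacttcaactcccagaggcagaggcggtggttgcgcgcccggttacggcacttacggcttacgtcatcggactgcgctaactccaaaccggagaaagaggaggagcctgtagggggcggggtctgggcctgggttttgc
Lipc, first start, chr9:70952172-70952471, minus strand: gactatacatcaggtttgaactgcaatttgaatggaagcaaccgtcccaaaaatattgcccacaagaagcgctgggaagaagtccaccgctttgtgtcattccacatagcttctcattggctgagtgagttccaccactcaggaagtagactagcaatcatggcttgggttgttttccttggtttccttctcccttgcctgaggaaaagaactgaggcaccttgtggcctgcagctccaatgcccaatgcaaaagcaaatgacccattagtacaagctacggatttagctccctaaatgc
Lipc, second start, chr9:70934759-70935058, minus strand: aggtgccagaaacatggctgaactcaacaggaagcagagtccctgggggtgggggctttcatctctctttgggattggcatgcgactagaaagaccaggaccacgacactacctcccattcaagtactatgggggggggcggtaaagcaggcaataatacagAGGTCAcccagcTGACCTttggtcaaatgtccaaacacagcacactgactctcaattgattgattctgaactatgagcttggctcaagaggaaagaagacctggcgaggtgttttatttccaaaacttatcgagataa
The Pltp window held 1 TATAAA, 37 to 42 bases after the listed start, and no AGGTCA. The window of the second Lipc start held 2 AGGTCA matches, from 88 to 83 and from 76 to 71 bases before the start, and the windows of the first Lipc start and of Mttp held none of the 3 motifs. The Lcat window and both Vldlr windows held none either. No DR1 element was found in these windows, which says only that these letters are not in them.

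Total counts ranged from 2101495 to 10548222 in males and from 7952605 to 13878254 in females. In males they were 6947711 to 9365709 in controls and 2101495 to 9098192 at 5 mg/kg. In females they were 9612688 to 11523373 in controls and 7952605 to 11262409 at 5 mg/kg. Of the 14 probes, 13 passed the filter on low counts. The second Lpl probe, Lpl_31494, did not, with at most 20 counts in any mouse and counts above 0 in 9 of 37 mice. It had no count in any male control or any male at 5 mg/kg. In females it reached 20 counts in controls and 19 at 5 mg/kg. A level below is 1000000 times the count of a probe over the TMM-scaled total of its library (CPM), and it is compared only within a probe, because probes differ in efficiency. A log2 fold change, with its standard error (SE), comes from edgeR's quasi-likelihood model of all 37 mice, with p-values adjusted by Benjamini-Hochberg over the 18570 probes that passed the filter, and a probe was called at an adjusted p under 0.10. The tissue carried all 7 of the hepatocyte markers examined, with a summed level of 19293 to 30371 CPM in male controls and 20171 to 28557 CPM in female controls. At 5 mg/kg that sum was 13248 to 17473 CPM in males and 17535 to 23280 CPM in females. In males 4 of the 7 genes were called lower, Cyp2e1, Cps1, Tat and Serpina1a, where 8.49% of all probes were. In females 2 of 7 were called lower, Ttr and Serpina1a, where 2.26% of all probes were. Alb and Hnf4a were called in neither sex. In bulk sections fewer cells of a type, less RNA per cell and lower levels of single genes cannot be told apart.

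Counted over the 13 probes, none was called at 0.1 mg/kg in males or females (0% of all probes tested in each sex) or at 0.5 mg/kg (0.625% of all probes in males and 0.113% in females). At an unadjusted p under 0.05 there were 2 male and 0 female results at 0.1 mg/kg and 3 in each sex at 0.5 mg/kg, and DESeq2 called 1 probe in males at 0.5 mg/kg and none in the other 3 comparisons. At 5 mg/kg 9 of 13 were called in males (12.7% of all probes), 5 higher (4.21% of all) and 4 lower (8.49% of all). In females 3 of 13 were called (4.52% of all), 2 higher (2.26% of all) and 1 lower (2.26% of all). The median log2 fold change of the 13 probes was 0.51 in males and 0.24 in females, against -0.12 and -0.01 for all probes. The 13 probes moved both ways, with 7 positive changes in males and 8 in females. The male median was the value of Scarb1_29696 and the female median that of Vldlr_78405, neither of them called in that sex. Between 0.5 and 5 mg/kg 2 of 13 were called in males (8.73% of all) and 0 in females (1.48% of all), where 4 had an unadjusted p under 0.05 and DESeq2 called 2.

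**Figure D1:**
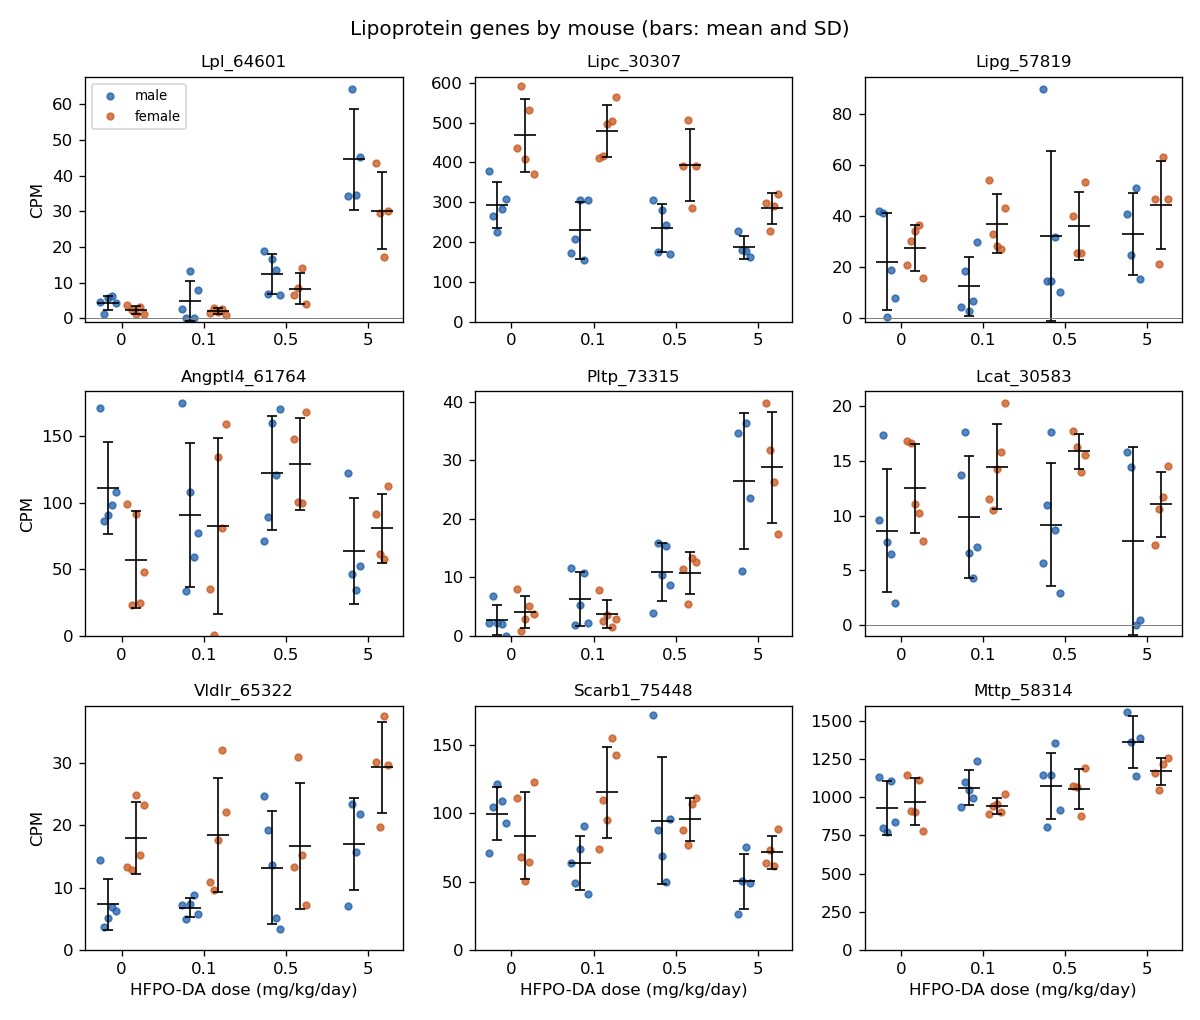
Level in CPM of the most counted probe of each of the 9 genes by dose of HFPO-DA, with 1 point per mouse, males in blue and females in orange, and bars for the mean and SD of each group. Lpl and Pltp are highest at 5 mg/kg in both sexes, whereas at 5 mg/kg Lipg, Lcat and Angptl4 overlap the controls of their sex.

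Lpl (chr8:68880491-68907448 on GRCm38, plus strand) was barely counted in control livers and rose in both sexes on Lpl_64601, its only probe past the filter. Lpl_31494, with few or no counts, showed no rise. In male controls Lpl_64601 stood at 4.56, 1.17, 5.75, 6.25 and 4.40 CPM, from 9 to 47 counts per mouse, and at 5 mg/kg at 34.2, 64.3, 34.5 and 45.1 CPM, from 92 to 583 counts. In female controls it stood at 3.88, 2.36, 1.31, 3.15 and 1.33 CPM and at 5 mg/kg at 43.5, 29.6, 17.1 and 30.1 CPM. Every mouse at 5 mg/kg, of either sex, lay above every control of its sex. The log2 fold change was 3.33 in males (SE 0.64, adjusted p = 0.000322, a 10.1-fold rise) and 3.64 in females (SE 0.65, adjusted p = 0.000175, a 12.5-fold rise). Over all probes, treated and control mice did not overlap at 5 mg/kg, in either direction, on 7.58% in males and 8.71% in females. These shares apply to each such separation at 5 mg/kg given below.

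Levels of Lpl at 0.5 mg/kg lay between those of the controls and of the highest dose. The males stood at 18.9, 6.79, 16.5, 13.5 and 6.45 CPM and the females at 6.52, 8.51, 14.2 and 3.91 CPM. Here too no treated mouse overlapped its controls, as on 1.35% of all probes in males and 3.01% in females. The log2 fold changes were 1.498 in males (95% interval 0.29 to 2.71, adjusted p = 0.351) and 1.79 in females (95% interval 0.52 to 3.06, adjusted p = 0.925), and neither passed the test. In males the step from 0.5 to 5 mg/kg was called, with a log2 fold change of 1.83 (SE 0.60, adjusted p = 0.0679), but not without mouse 2 or 5 of the 0.5 mg/kg group (adjusted p = 0.124 and 0.135) or mouse 2 of the 5 mg/kg group (adjusted p = 0.148). In females the step was 1.85 with an adjusted p of 0.280. At 0.1 mg/kg Lpl ranged from 0 to 13.3 CPM in males and from 0.955 to 3.04 CPM in females, overlapping the controls in each sex.

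Because fat, muscle and macrophages also make Lpl, markers of those cells were set beside it. Of 7 adipocyte genes only Cidec and Car3 passed the filter, and Adipoq and Plin1, which define adipocytes, had at most 13 and 12 counts in any mouse. The summed level of all 7 adipocyte genes was lower at 5 mg/kg, at 263 to 758 CPM against 1097 to 2509 CPM in male controls. In females it was 172 to 442 CPM against 777 to 1787 CPM in controls. Car3, a carbonic anhydrase that hepatocytes also express, was called lower in both sexes. Its log2 fold changes were -1.96 for males and -1.63 for females (adjusted p = 2.31e-06 and 7.68e-05). Nearly all of that sum was Car3. Cidec, which coats lipid droplets, was counted at 0 in 3 of 5 male and 4 of 5 female controls and at 5 mg/kg reached 96 counts as the highest male value and 14 as the highest female value; its log2 fold changes of 3.47 and 2.25 went the other way and were not called (adjusted p = 0.267 and 0.8291). Of 8 Kupffer cell and macrophage genes edgeR and DESeq2 called none at 5 mg/kg, with 1 in males and 0 in females at an unadjusted p under 0.05, and their sums overlapped, at 85.1 to 267 CPM against 65.5 to 293 CPM in males and at 151 to 352 CPM against 151 to 300 CPM in females. Of 5 muscle genes Mb was at 0 in every mouse, the other 4 were not called in edgeR or DESeq2, with 1 in males and 0 in females at an unadjusted p under 0.05, and their sum was 4.48 to 19.1 CPM against 6.73 to 57.0 CPM in males. The sums of the stellate, cholangiocyte and blood cell lists also overlapped between 5 mg/kg and vehicle within each sex, but not all medians were alike. In males the median stellate sum was 359.9 CPM at 5 mg/kg against 183.7 CPM in controls. In females it was 447 CPM against 228.6 CPM. The cholangiocyte median was also higher at 5 mg/kg in both sexes, and the blood cell median in males alone. No gene of these lists was called in edgeR, and DESeq2 called 1 stellate gene in males, the only one with an unadjusted p under 0.05. Of 7 endothelial genes Kdr and Oit3 were called lower in males at 5 mg/kg and none in females, where 1 had an unadjusted p under 0.05 and DESeq2 called none. The part of the macrophage, muscle, endothelial and stellate genes in the rise of Lpl was not tested.

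Angptl4 (chr17:33773750-33781830, minus strand) encodes a secreted inhibitor of lipoprotein lipase and is a known target of the PPAR nuclear receptors. It was well counted in most mice and varied widely within groups. Male controls stood at 171, 85.9, 90.8, 98.5 and 108 CPM and males at 5 mg/kg at 122, 46.6, 34.1 and 52.2 CPM, a log2 fold change of -0.79 (95% interval -1.96 to 0.37, adjusted p = 0.438). Female controls stood at 99.3, 23.04, 91.5, 24.5 and 47.8 CPM and females at 5 mg/kg at 91.1, 61.1, 58.0 and 112 CPM, a log2 fold change of 0.50 (95% interval -0.64 to 1.63, adjusted p = 0.962). The groups overlapped in both sexes. At 0.5 mg/kg all 4 females, at 148, 101, 100 and 168 CPM, lay above the highest female control, where 3.01% of all probes did not overlap. The log2 fold change of 1.17 (95% interval 0.03 to 2.31) did not pass the test (adjusted p = 1). The coefficient of variation within a group ran from 26.5% in those females to 80.3% in females at 0.1 mg/kg, where mouse 2 had 12 counts and mouse 3 had 1957.

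Lipc (chr9:70798128-70952226, minus strand), the hepatic lipase gene, was called lower at 5 mg/kg on both of its probes in males and on 1 of them in females. On Lipc_67465 male controls stood at 58.6, 60.3, 56.6, 63.3 and 73.0 CPM and males at 5 mg/kg at 34.4, 32.99, 40.1 and 34.1 CPM, all below the controls. The log2 fold change was -0.82 (SE 0.20, adjusted p = 0.00612), and it kept its call without any single mouse. On the same probe female controls stood at 89.7, 108, 77.7, 92.8 and 75.6 CPM and females at 5 mg/kg at 66.8, 45.0, 57.9 and 70.8 CPM, all below the controls, yet the change of -0.56 (SE 0.20) had an adjusted p of 0.132. The call in females depended on the processing, with an adjusted p of 0.0347 in DESeq2. In edgeR it was 0.0445 with the sexes fitted apart and 0.0913 with the filter at a mean of at least 10 counts.

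Lipc_30307, the more counted probe, fell in both sexes. Female controls stood at 437, 592, 407, 531 and 371 CPM and females at 5 mg/kg at 298, 228, 291 and 320 CPM, without overlap, with a log2 fold change of -0.72 (SE 0.21, adjusted p = 0.0364). Male controls stood at 379, 267, 226, 284 and 309 CPM and males at 5 mg/kg at 229, 181, 178 and 162 CPM, with mouse 1 of the treated group just above the lowest control. The change in males was -0.64 (SE 0.21, adjusted p = 0.0423). Single mice decided the call on this probe, since the adjusted p was 0.107 in males without control 1, and in females 0.140 without control 2 and 0.1703 without treated mouse 2. The 2 probes correlated at r = 0.83 over the 37 mice, with the levels centred within each sex, and summing their counts gave changes of -0.65 for males and -0.69 for females (adjusted p = 0.0242 and 0.0285). At 0.5 mg/kg the changes on the 2 probes were -0.32 and -0.29 in males and -0.25 and 0.05 in females, none called.

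Lipg (chr18:74939322-74961263, minus strand), which encodes endothelial lipase, was not called at any dose in either sex. Male controls ranged from 0.134 to 42.0 CPM with a median of 19.0045, and males at 5 mg/kg from 15.1 to 51.0 CPM with a median of 32.9. Female controls ranged from 15.7 to 36.7 CPM and females at 5 mg/kg from 21.2 to 63.4 CPM. The log2 fold changes were 0.57 (95% interval -0.74 to 1.88, adjusted p = 0.678) and 0.69 (95% interval -0.59 to 1.98, adjusted p = 0.886).

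Pltp (chr2:164839518-164857711, minus strand), the phospholipid transfer protein, was the other gene of the group with a large rise in both sexes. In males Pltp_73315 stood at 2.16, 6.88, 2.27, 1.99 and 0 CPM in controls and at 34.7, 11.1, 36.4 and 23.6 CPM at 5 mg/kg. In females it stood at 8.07, 0.819, 2.90, 5.11 and 3.66 CPM in controls and at 39.8, 31.8, 26.2 and 17.4 CPM at 5 mg/kg. No treated mouse overlapped its controls, and the rise was 9.82-fold in males (95% interval of the log2 change 1.97 to 4.62) and 6.99-fold in females (1.52 to 4.09), with adjusted p-values of 0.000478 and 0.00355. Without male control 2, the highest of its group, the log2 change in males was 3.98 in place of 3.30.

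At 0.5 mg/kg Pltp stood at 3.87, 15.8, 10.5, 15.3 and 8.75 CPM in males, 4 of 5 above every control, and at 11.4, 5.40, 13.2 and 12.6 CPM in females, 3 of 4 above every control. The log2 fold changes of 2.01 (SE 0.61, adjusted p = 0.173) and 1.38 (SE 0.61, adjusted p = 1) were not called. The call in males depended on the processing, with an adjusted p of 0.0462 in DESeq2, 0.0721 with no filter on low counts and 0.0643 without male control 2. At 0.1 mg/kg males ranged from 1.78 to 11.7 CPM and females from 1.56 to 7.84 CPM, both overlapping the controls.

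Lcat (chr8:105939551-105943382, minus strand), the cholesterol-esterifying enzyme of HDL, showed no change that the test could call. Male controls ranged from 1.99 to 17.4 CPM and males at 5 mg/kg stood at 15.8, 14.5, 0 and 0.464 CPM, the last 2 from 0 and 3 counts, with mouse 3 being the library of 2101495 counts. Female controls ranged from 7.66 to 16.9 CPM and females at 5 mg/kg from 7.35 to 14.5 CPM. The log2 fold changes were -0.14 (95% interval -1.41 to 1.13, adjusted p = 0.941) and -0.18 (95% interval -1.41 to 1.06, adjusted p = 1).

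**Figure D2:**
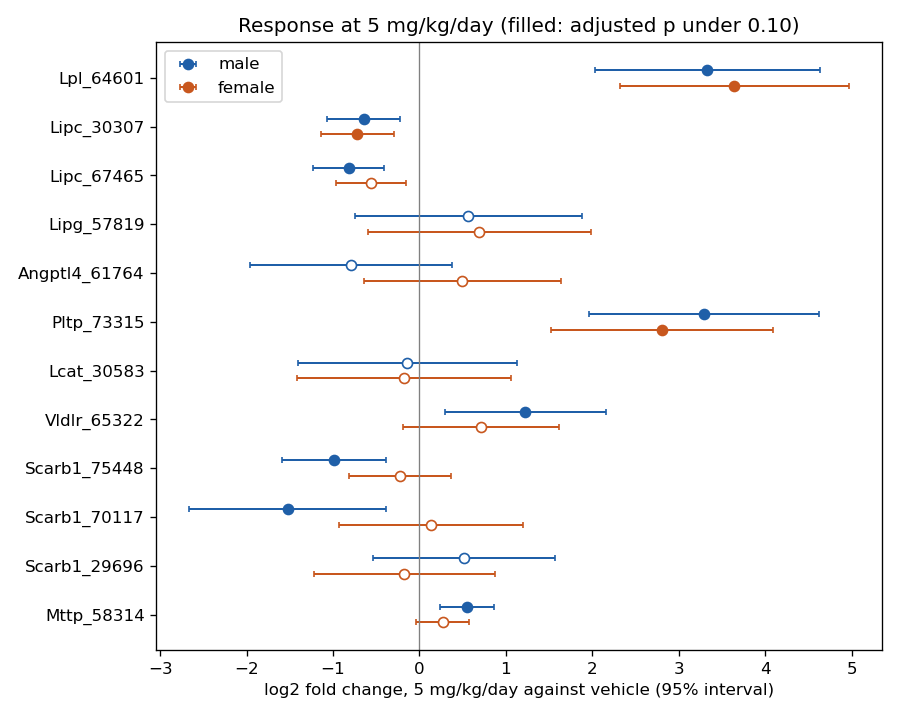
Log2 fold change at 5 mg/kg of HFPO-DA against vehicle for 12 probes of the 9 genes, with the 95% interval as a bar, males in blue and females in orange, and filled points for an adjusted p under 0.10. The intervals of Lpl and Pltp lie above 1 in both sexes and those of both Lipc probes below 0; Vldlr_78405, with no count in male controls, is left out.

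Vldlr (chr19:27216484-27254231, plus strand) encodes the VLDL receptor, which binds triglyceride-rich particles and supports their lipolysis. On Vldlr_65322 male controls stood at 14.4, 3.76, 5.22, 6.91 and 6.25 CPM and males at 5 mg/kg at 7.07, 23.4, 15.8 and 21.8 CPM. Of the 4 treated males 3 lay above every control, and the log2 fold change of 1.22 (SE 0.46, adjusted p = 0.0879) was called by a small margin. That call was lost without any one of 7 of the 9 mice, namely male controls 2 to 5 and treated mice 2 to 4, with adjusted p-values of 0.117 to 0.218, and it was 0.260 with the sexes fitted apart. Female controls stood at 13.3, 12.8, 24.9, 15.2 and 23.3 CPM and females at 5 mg/kg at 30.2, 19.8, 37.5 and 29.7 CPM, 3 of 4 above every control, with a log2 fold change of 0.71 (SE 0.44, adjusted p = 0.634). With the counts of both probes summed, the change in males was 1.38 (adjusted p = 0.0418).

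The second Vldlr probe, Vldlr_78405, was near the detection limit. Its counts were 0 in all 5 male controls and all 5 males at 0.1 mg/kg, and 10, 25, 0 and 10 in the males at 5 mg/kg, where it was called (adjusted p = 0.0219). The mean level at 5 mg/kg in males, 1.67 CPM, was 21.1-fold over a floor of 3 counts across the control group. That ratio makes no allowance for the spread between mice. The 95% interval of the fitted log2 change was 2.90 to 10.9. In females the probe had 0 to 12 counts in controls and 0 to 17 at 5 mg/kg (adjusted p = 1). It passed the filter through the groups in which it was counted. The 2 probes correlated at r = 0.31 over the 37 mice with the levels centred within each sex.

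Scarb1 (chr5:125277087-125341094, minus strand), the receptor that takes cholesteryl ester from HDL into hepatocytes, was read by 3 probes, 2 of which were called in males. On the most counted, Scarb1_75448, male controls stood at 71.0, 105, 122, 109 and 92.9 CPM and males at 5 mg/kg at 26.6, 50.5, 75.8 and 48.8 CPM. The log2 fold change was -0.99 (SE 0.30, adjusted p = 0.0275), with treated mouse 3 above the lowest control, and without treated mouse 1 the adjusted p was 0.103. On Scarb1_70117 male controls stood at 21.98, 24.6, 24.9, 19.3 and 18.05 CPM and treated males at 16.5, 6.07, 0.375 and 6.80 CPM, all below the controls, a log2 fold change of -1.53 (SE 0.55, adjusted p = 0.0802). The 0.375 CPM of treated mouse 3 came from 1 count in the library of 2101495 counts.

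That call on Scarb1_70117 was lost without any one of 5 of the 9 mice (male controls 2 and 3 and treated mice 2, 3 and 4), with adjusted p-values of 0.104 to 0.199, and without treated mouse 1 the log2 change was -2.24. On Scarb1_29696 male controls ranged from 3.55 to 10.4 CPM and treated males from 4.50 to 15.1 CPM, a log2 fold change of 0.51 (SE 0.51, adjusted p = 0.623). Over the 37 mice, with the levels centred within each sex, Scarb1_75448 correlated at r = 0.20 with Scarb1_70117 and at -0.07 with Scarb1_29696, and the latter 2 at 0.54. With the counts of the 3 probes summed the change in males was -0.92 (adjusted p = 0.0161).

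In females no Scarb1 probe was called at 5 mg/kg, and the log2 fold changes were -0.23, 0.13 and -0.18 in the same order of probes, with adjusted p-values of 0.983, 1 and 1. Female controls on Scarb1_75448 stood at 111, 68.4, 50.6, 64.6 and 123 CPM and females at 5 mg/kg at 63.4, 73.0, 61.3 and 88.3 CPM, inside the range of the controls. In males the step of Scarb1_75448 from 0.5 to 5 mg/kg was -0.91 (SE 0.30, adjusted p = 0.0618), but the adjusted p was 0.201 without mouse 1 of the 0.5 mg/kg group, which stood at 172 CPM, and 0.166 without mouse 1 of the 5 mg/kg group. At 0.1 mg/kg the male change of -0.65 and the female change of 0.46 were not called (adjusted p = 0.630 and 1).

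**Figure D3:**
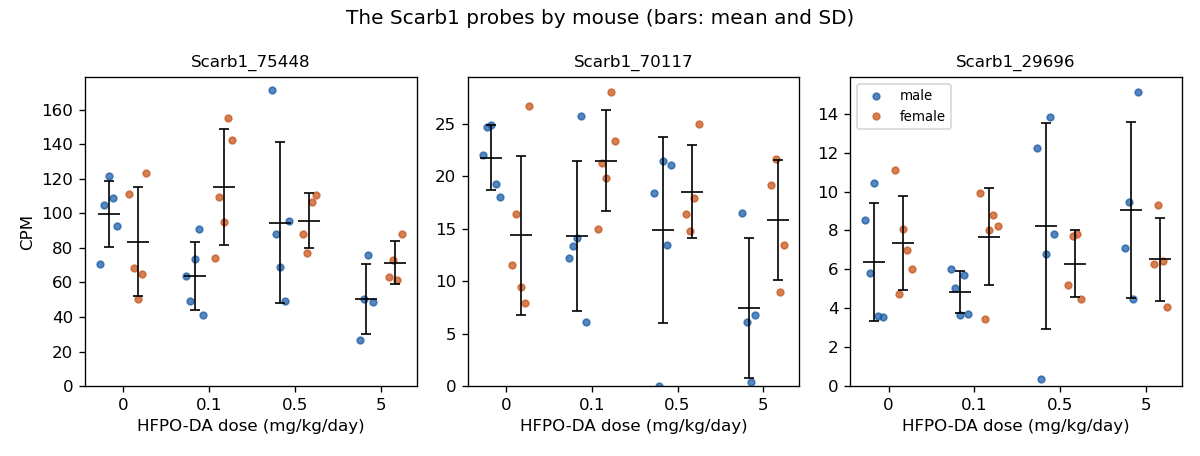
Level in CPM on each of the 3 Scarb1 probes by dose of HFPO-DA, with 1 point per mouse, males in blue and females in orange, and bars for the mean and SD. In males at 5 mg/kg the first 2 probes stand at 26.6 to 75.8 and 0.375 to 16.5 CPM, below most or all controls, while the third overlaps them.

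Mttp (chr3:138089854-138144968, minus strand), which encodes the large subunit of microsomal triglyceride transfer protein, was abundant and varied little, so that a small change could be detected. Male controls stood at 1134, 796, 772, 1106 and 841 CPM and males at 5 mg/kg at 1560, 1361, 1141 and 1390 CPM, each above the highest control. The log2 fold change was 0.55 (SE 0.15, adjusted p = 0.0151), a 1.47-fold rise, and it kept its call without any single mouse. Female controls stood at 1148, 909, 906, 1116 and 779 CPM and females at 5 mg/kg at 1158, 1048, 1219 and 1254 CPM, a log2 fold change of 0.27 (95% interval -0.04 to 0.58, adjusted p = 0.536). The lowest treated female lay below the highest control. At 0.1 and 0.5 mg/kg the log2 changes were 0.19 and 0.21 in males and -0.04 and 0.11 in females, none called.

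**Figure D4:**
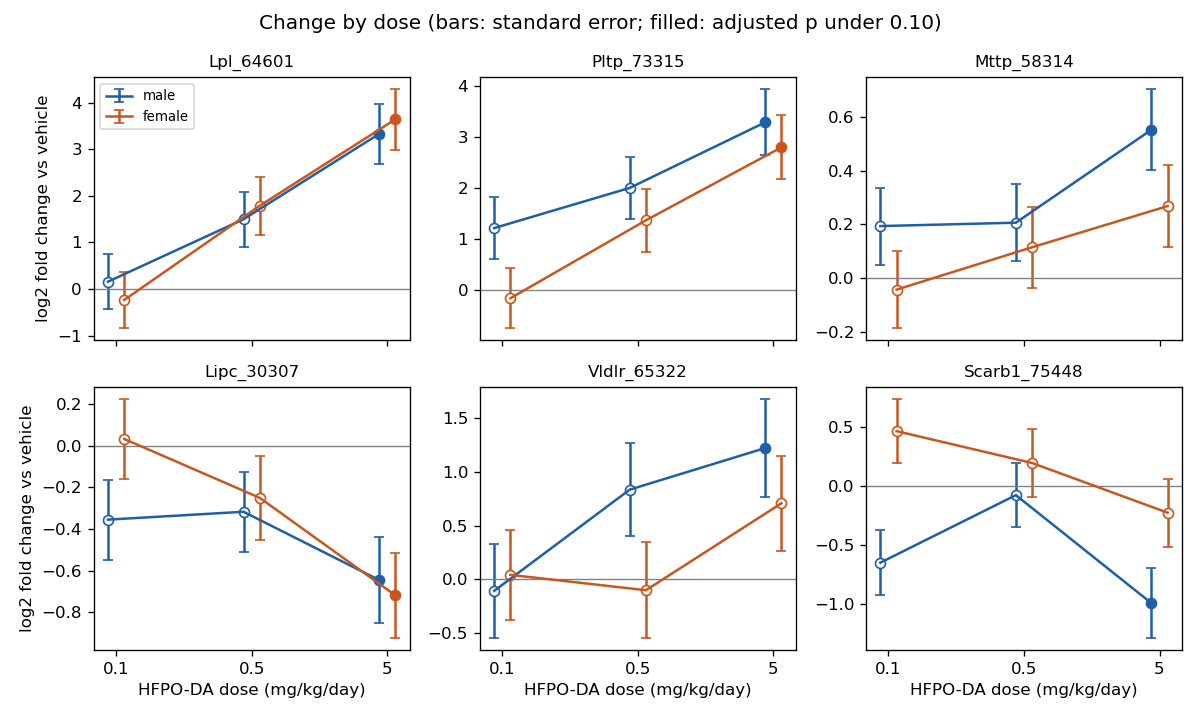
Log2 fold change of each HFPO-DA dose against vehicle, the doses (mg/kg) shown as equally spaced steps, for the main probe of the 6 genes called in at least 1 comparison with vehicle, with the standard error as a bar, males in blue and females in orange, and filled points for an adjusted p under 0.10. Lpl and Pltp lie above 0 by more than their standard errors at 0.5 and 5 mg/kg in both sexes, and only points at 5 mg/kg are filled.

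Whether the sexes differed in their response was tested as the interaction of sex and dose. None of the 13 probes passed at 0.1 (0% of all probes), 0.5 (0.0108%) or 5 mg/kg (0.63%), in edgeR or in DESeq2. At an unadjusted p under 0.05 there were 2, 0 and 2 probes. At 5 mg/kg the differences, male minus female response, were -0.31 for Lpl (95% interval -2.07 to 1.44), 0.49 for Pltp (-1.29 to 2.27), 0.07 and -0.26 for the Lipc probes, and 0.28 for Mttp (-0.16 to 0.72). For Scarb1_75448 the difference was -0.76 (95% interval -1.60 to 0.07, adjusted p = 0.516) and for Scarb1_70117 -1.66 (-3.20 to -0.12, adjusted p = 0.418). For Vldlr_65322 it was 0.51 (-0.79 to 1.82, adjusted p = 0.906). For Vldlr_78405 it was 6.67 (1.88 to 11.5, adjusted p = 0.291), a fitted value that depends on the prior count because the male controls were at 0. The calls of Mttp, Vldlr and Scarb1 in males alone are therefore not shown to differ from the response of females.

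Vehicle males and females differed on 1 of the 13 probes (2.6% of all). Lipc_30307 had a mean of 293 CPM ± 57.1 (SD, n = 5) in males and 468 CPM ± 91.3 (SD, n = 5) in females, a log2 difference of -0.67 (SE 0.19, adjusted p = 0.0569), though mouse 1 of the males overlapped the lowest female. That call was lost without any one of 5 of the 10 mice, male controls 2, 3 and 4 and female controls 2 and 4, with adjusted p-values of 0.138 to 0.241. On Lipc_67465 all males lay below all females, with a log2 difference of -0.51 (adjusted p = 0.207). Vehicle males and females did not overlap on 4% of all probes. Mttp had a mean of 930 CPM ± 176 in males and 972 CPM ± 156 in females (SD, n = 5 each), which did not differ beyond this spread. Vldlr_65322 had 7.31 CPM ± 4.14 in males and 17.9 CPM ± 5.76 in females (SD, n = 5 each), a log2 difference of -1.29 with an adjusted p of 0.146. With the counts of both Vldlr probes summed, the difference was -1.32 and was called by a small margin (adjusted p = 0.0997).

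Around these proteins stand their apolipoprotein cofactors, receptors and partners, and 51 listed genes of this kind were measured. At 0.1 mg/kg edgeR and DESeq2 called none in either sex, with 5 genes in males and 3 in females at an unadjusted p under 0.05. At 0.5 mg/kg edgeR called 2 in males, Cd36 and Lpcat3, both higher, where 0.625% of all probes were called in either direction. It called none in females, where 0.113% of all probes were. At an unadjusted p under 0.05 there were 12 genes in males and 13 in females, and DESeq2 called 3 and 1. At 5 mg/kg 4 rose and 12 fell in males, where 4.21% of all probes were called higher and 8.49% lower. In females 3 rose and 5 fell, where 2.26% of all probes were called in each direction. A gene counted as called if any of its probes was, which can raise its share over that of single probes. The genes had a median log2 fold change of -0.13 on the most counted probe in males and -0.01 in females. Cd36, the fatty acid translocase, rose on both probes in both sexes, on Cd36_74899 by 4.53 in males (SE 0.48, adjusted p = 4.75e-09) and 2.25 in females (SE 0.44, adjusted p = 0.000646) on the log2 scale. Lpcat3, which remodels phospholipid in the particles that Mttp loads, rose by 1.54 and 0.92 (adjusted p = 7.82e-06 and 0.0111). Pnpla2, the adipose triglyceride lipase, rose in females on Pnpla2_69002 by 1.61 (adjusted p = 0.00284) and stood at 0.52 in males (adjusted p = 0.398), while Pnpla2_64434 was called in neither sex. The difference between the sexes was not called for Cd36 or Pnpla2 (adjusted p = 0.106 and 0.427).

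The cofactors and inhibitors of lipoprotein lipase did not move as one group. Apoc3, which inhibits the lipase, fell in males and females (-0.87 and -1.02 on the log2 scale, adjusted p = 6.93e-05 and 7.14e-06), and Apoa5, which promotes lipolysis, fell on all 3 of its probes in both sexes, from -0.74 to -0.49 in males and from -1.17 to -1.04 in females on the log2 scale. Apoc2, the obligate activator, stood at 0.23 in males and 0.29 in females (adjusted p = 0.712 and 0.914). Angptl8, a secreted regulator of the lipase, ranged from 4.78 to 24.2 CPM in female controls and from 1.40 to 4.74 CPM in females at 5 mg/kg, without overlap, but the log2 change of -2.14 (SE 0.92) had an adjusted p of 0.288. Gpihbp1, the capillary anchor of the lipase, had at most 28 counts in any control and was not called (adjusted p = 0.662 and 0.964). Lmf1, which matures the lipases, was not called on either probe.

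Among the structural apolipoproteins and their receptors, Apoa4 fell in both sexes (log2 fold change -2.61 in males and -3.43 in females, adjusted p = 2.19e-05 and 3.45e-07). Apof fell with changes of -0.95 and -1.04 (adjusted p = 4.49e-05 and 1.79e-05). Apom, the carrier of sphingosine 1-phosphate on HDL, fell in males (-2.11, adjusted p = 5.53e-06) and had a change of -0.51 in females (adjusted p = 0.529), a difference between the sexes that passed the test (-1.61, adjusted p = 0.0736). Apoa1, the main protein of HDL, fell on both probes in males, with changes of -1.14 and -0.86, and stood at -0.01 and 0.30 in females, with both differences called (adjusted p = 0.0267 and 0.00859). Apob, the protein that Mttp lipidates, fell in males on Apob_68264 (-0.70, adjusted p = 0.00405) and not on the more counted Apob_77502 (-0.23, adjusted p = 0.409). Neither probe was called in females. P4hb, the small subunit of the transfer protein, had a change of -0.44 in males (adjusted p = 0.0856, called) and -0.29 in females (adjusted p = 0.504).

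The remnant receptor Lrp1 fell on Lrp1_78770 in both sexes (-0.85 and -0.63, adjusted p = 0.00059 and 0.0211), and its other 2 probes were called lower in males and not in females, a difference that was not called (adjusted p = 0.694 and 0.579). Pdzk1, the adaptor that holds Scarb1 in the hepatocyte membrane, had changes of -0.67 and -0.78 on its probes in males with adjusted p-values of 0.139 and 0.194. Furin, a protease that cleaves lipoprotein lipase and endothelial lipase, fell in males on Furin_30709 (-0.65, adjusted p = 0.0076) and was not called on its other 2 probes. The hepatocyte markers given above moved in the same libraries as these falls and as those of Lipc and Scarb1, and their part in them was not tested.

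**Figure D5:**
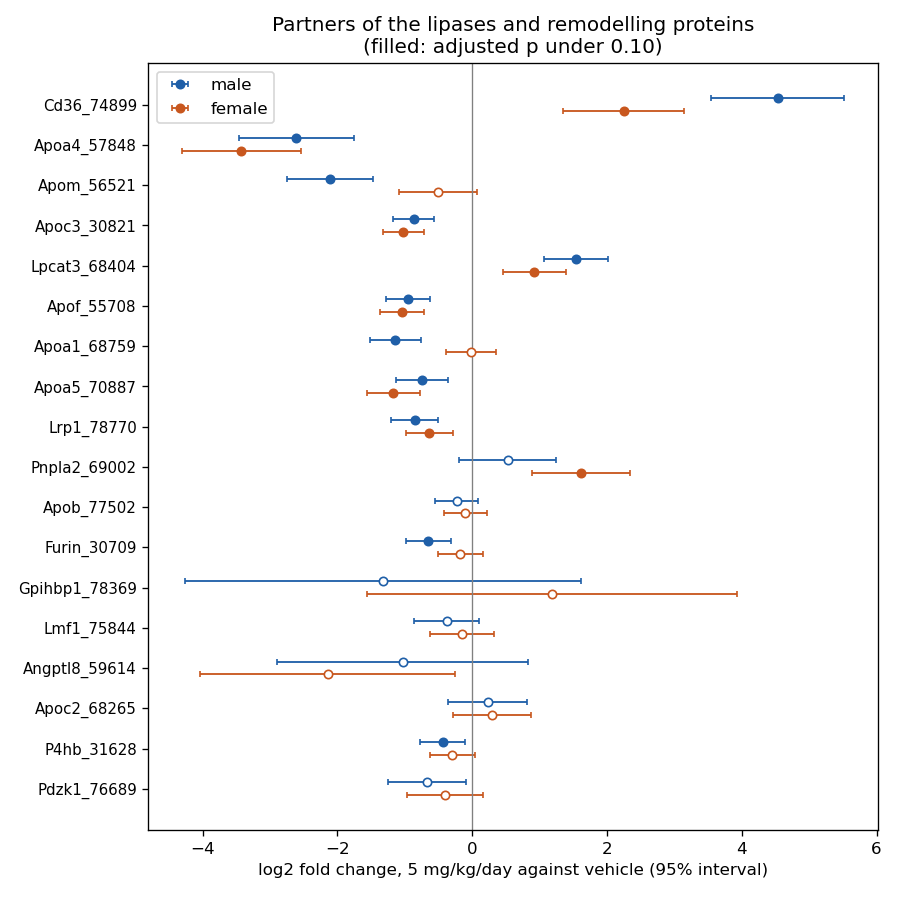
Log2 fold change at 5 mg/kg of HFPO-DA against vehicle, with the 95% interval as a bar, on the most counted probe of 18 cofactors, receptors and partners, males in blue and females in orange, and filled points for an adjusted p under 0.10. Cd36 and Lpcat3 lie above 0 in both sexes, Apoa4, Apoc3, Apof, Apoa5 and Lrp1 below 0 in both, and Apom and Apoa1 are filled in males alone.

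Across the 37 mice, with levels centred within each sex, the genes whose log2 CPM was most like each called member were ranked by Pearson's r among 13004 genes. These points share dose groups and libraries and are given as a description. The 3 most like Lpl were Cyp4a10 (r = 0.86), Cyp4a31 (0.85) and Ehhadh (0.84), enzymes of fatty acid omega-hydroxylation and peroxisomal oxidation. By Spearman's rho the 3 were Fam213a (0.87), Cyp4a31 (0.86) and Gstm4 (0.85), so only Cyp4a31 was on both lists. Cyp4a10 and Cyp4a31 are close copies of each other, and the specificity of their probes was not examined. Those most like Pltp included Slc25a20 (0.80) and Slc27a1 (0.80), the latter replaced by Vnn1 (0.81) by rho. The 3 most like Mttp were Acad11 (0.82), Acaa2 (0.80) and Vwa8 (0.80). Those most like Lipc were Serpinf1 (0.87), Gckr (0.83) and Lamp2 (0.82). For Vldlr and Scarb1 the highest values were lower, 0.63 with Tmem98 and 0.67 with Serpind1 (by rho 0.64 with Pctp and 0.66 with Serpina3n). Among the members, Lipc and Pltp had r = -0.70, Lpl and Pltp 0.56, Lpl and Mttp 0.55, and Scarb1 and Mttp -0.56.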

How the data were processed

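Liver sections of 37 mice were assayed by TempO-Seq, in which pairs of probes ligated on a transcript are amplified and sequenced. The authors counted reads per probe, with Bowtie and bcl2fastq 2.17.1.14 named in their processing notes, removed mice of low depth or with few probes, and deposited the counts as whole numbers without normalization. The genome build is not given in the sources used here. Total counts ranged from 2101495 to 13878254, and 1757 probes had no count. The deposited table gives no position or sequence for a probe. The labels give no batch.

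Counts were analysed in R 4.3.3 with edgeR 4.0.16: filterByExpr over the 8 groups, TMM, 1 mean per group, quasi-likelihood F tests, and Benjamini-Hochberg adjustment over 18570 probes at 0.10. Standard errors were the log2 fold change over the square root of F, and 95% intervals used 29 residual degrees of freedom. CPM used TMM library sizes, and correlations used log2 CPM with a prior count of 2. The alternatives changed the test (DESeq2 1.42.0, or a robust edgeR fit), the scaling (DESeq2's size factors in edgeR), the filter (none, or means from 10 counts up), the threshold (0.05), the mice (sexes apart, or every mouse omitted in turn), the unit (a gene's probes summed) or the correlation (Spearman's rho). The fits were tested on simulated counts, with 200 probes changed by 2 on the log2 scale, up or down, in males at 5 mg/kg. The 200 were drawn from probes with means from 10 counts up, and no other probe differed between groups or sexes. There edgeR recovered 120 of the 200 with 5 false calls, and DESeq2 recovered 131 with 32 false calls. Recovery of probes with lower means, or with many more probes changed, was not tested. Figures were drawn with matplotlib 3.10.9.

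The genes, the list of 52 partners (51 on the table), the marker lists and the tests were chosen with earlier results of these data known. Named partners were up to 12 called against vehicle, by smallest adjusted p, plus genes that act directly on a member; some items the rule names are not reported here. Gene coordinates are from GENCODE release M21 (GRCm38).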

Additional observations from a re-analysis of the deposited data

Results flagged for a closer look

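In groups of 4 or 5 mice, each probe's highest or lowest mouse was compared with the rest by Dixon's ratio. Of 104 groups, 5 held a mouse past the 95% limit, and chance alone passes about 1 group in 20. Lipc_67465 stood at 73.7 CPM in female 3 at 0.5 mg/kg, below 95.6 to 100.1 CPM in the other 3. Lipg stood at 90.1 CPM in male 1 at 0.5 mg/kg, above 9.98 to 31.6 CPM in the other 4. Angptl4 stood at 171 CPM in male control 1, above 85.9 to 108 CPM in the other 4. Vldlr_78405 stood at 1.03 CPM (10 counts) in male 4 at 0.5 mg/kg, above 0 to 0.123 CPM, and at 0.0781 CPM (1 count) in female 2 at 0.1 mg/kg, below 0.756 to 1.01 CPM. None of these 4 probes crossed the threshold in a comparison with vehicle when its named mouse was left out.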

How the results depend on the processing

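The rises of Lpl and Pltp at 5 mg/kg in both sexes, and of Mttp in males, kept their call under every alternative and without any single mouse, as did the fall of Lipc_67465 in males. The number of called probes of the 9 genes moved elsewhere. In males at 5 mg/kg it was 9, 5 with each sex fitted apart, and 7 to 8 with a mouse left out. In females at 5 mg/kg it was 3, 4 in DESeq2, with means from 10 counts up or with the sexes apart, and 2 to 3 with a mouse left out. At 0.5 mg/kg in males it was 0, 1 with no filter on low counts or in DESeq2, and 0 to 1 with a mouse left out; in females it was 0, and 1 with the sexes apart. From 0.5 to 5 mg/kg it was 2 in males, 0 with the sexes apart or at a threshold of 0.05, and 1 to 3 with a mouse left out; in females it was 0, and 2 in DESeq2 or with the sexes apart. Between vehicle males and females it was 1, 3 in DESeq2, 0 at 0.05, and 0 to 2 with a mouse left out. Over all probes at 5 mg/kg the calls were 2359 in males, 1120 with the sexes apart and 1530 at 0.05, and 839 in females, 1269 in DESeq2 and 2093 with the sexes apart. At 0.5 mg/kg they were 116 in males (DESeq2 319, sexes apart 53, at 0.05 70) and 21 in females (no filter 34, DESeq2 76, sexes apart 70), and at 0.1 mg/kg 0 (no filter 14 and 1, DESeq2 19 and 3). From 0.5 to 5 mg/kg they were 1622 in males (sexes apart 556, at 0.05 926) and 274 in females (DESeq2 501, sexes apart 742). For the difference between the sexes they were 0, 2 and 117 in order of dose (DESeq2 4, 7 and 250, at 0.05 70 at 5 mg/kg; no filter 6 and 14 at 0.1 and 0.5 mg/kg; robust fit or 0.05 0 at 0.5 mg/kg), and in vehicle mice 483 (DESeq2 813). With a mouse left out, the 116 in males at 0.5 mg/kg became 59 to 115 (59 without mouse 4 of that dose, 76 without male control 2). The 274 in females from 0.5 to 5 mg/kg became 161 to 281 (161 without mouse 1 at 0.5 or mouse 3 at 5 mg/kg, 172 without mouse 4 at 0.5 mg/kg). The difference between the sexes became 80 to 217 at 5 mg/kg (205 and 217 without males 2 and 4 of that dose), 0 to 4 at 0.5 mg/kg and 0 to 1 at 0.1 mg/kg (1 without female control 1). The other counts stayed within 1.5 times.

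Of the partner genes, with the sexes apart 1 was called in males at 0.5 mg/kg in place of 2, 14 in females at 5 mg/kg in place of 8, and, from 0.5 to 5 mg/kg, 8 in males in place of 14 and 7 in females in place of 4. In females at 0.5 mg/kg 1 was called in DESeq2 or with the sexes apart, in place of 0. The difference between the sexes gave 1 with no filter in place of 0 at 0.5 mg/kg, and 4 in DESeq2 and 1 at 0.05 in place of 2 at 5 mg/kg; vehicle males and females gave 4 at 0.05 in place of 8. With a mouse left out these ranges were 1 to 3 and 13 to 17 in males at 0.5 and 5 mg/kg, 7 to 10 in females at 5 mg/kg, 11 to 18 and 3 to 4 from 0.5 to 5 mg/kg, 1 to 3 for the difference at 5 mg/kg, and 4 to 9 in vehicle mice.

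No called value changed sign; 6 of 1055 values under other settings and 112 of 1823 with a mouse left out changed sign where neither fit called them. The cause of these changes was not tested. No paired analysis was possible because the labels give animal numbers that no groups share. Of the 13 probes, Vldlr_78405, with few counts, had the widest interval at 5 mg/kg in both sexes.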
